A study of Mus musculus with 71 samples.

Results

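The hippocampus of mice with a burn of the skin was compared with the hippocampus of mice with an excision of the skin. The comparison takes the 20 libraries whose tissue field names the hippocampus and whose treatment field names burn or excision, out of 71 libraries in the series. Burn and excision had 10 libraries each, 5 in each of 2 batches, and 9 sham libraries of the same region (4 and 5) were read beside them. The series also holds the frontal and the piriform cortex and was made to follow brain transcripts after a non-severe burn.

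All mice were C57BL/6J. Every group, sham included, was anaesthetised with isoflurane, given buprenorphine at 0.1 mg/kg and shaved. Every group then drank water with 1 mg/mL of paracetamol for 5 days. Burn was a full-thickness contact injury made on the right dorsal flank with a brass rod 19 mm across, heated to over 90 °C and held for 10 s, over 7 to 8% of the body surface. Excision was a full-thickness removal of skin scored with a punch 12 mm across on the posterior midline of the back, and per the labels that wound later widened to the area of the burn. The kind of injury and its site therefore cannot be told apart in this comparison. The labels used here do not give time after injury, age, sex or the animal behind each library, so p-values measure the spread between these libraries. The labels call the tissue mixed, and in such bulk samples fewer cells of a type and less RNA per cell cannot be told apart.

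Levels are in CPM, the authors' deposited gene counts scaled to the normalised total of each library. Fold changes are log2, burn minus excision, from a model of all 29 hippocampus libraries with batch as a term. A gene is called where its adjusted p, over 19574 genes, is under 0.05. At an unadjusted p under 0.05, 7.46% of all genes were lower after burn and 6.79% higher. The dentate granule cell genes Prox1 and C1ql2 were at 59.8 ± 15.8 and 119 ± 35.9 CPM in excision (SD, n = 10), against 6.90 ± 2.09 and 0.923 ± 0.327 CPM in the frontal cortex after excision (SD, n = 10). Fibcd1, a marker of the CA1 field, was at 176 ± 48.9 CPM in the hippocampus and 20.5 ± 4.86 CPM in the frontal cortex. All 3 were higher in the libraries labelled hippocampus.

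The endoplasmic reticulum (ER) folds secreted and membrane proteins with the help of chaperones, disulfide isomerases and prolyl hydroxylases, and hands misfolded proteins to a ubiquitin ligase complex for degradation. When folding capacity runs short, sensors in its membrane start the unfolded protein response: IRE1 splices the Xbp1 mRNA, and XBP1 and ATF6 then raise chaperone and degradation genes. Many of these genes carry an ER stress element near their start, in which the factor NF-Y holds the CCAAT end and ATF6 or XBP1 the CCACG end.

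Of 43 measured genes of this folding system 5 were called, all lower after burn (0.143% of all genes were called lower), and 32 were lower in sign. An element that binds factors of this response was searched for in their promoters. The 250 bases before each start were searched for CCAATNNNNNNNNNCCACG on both strands, where N is any base. The element was found in 9 of 35 folding genes with an entry in the RefSeq promoter table (25.7%). Among all 12646 tested genes with an entry, 20 held it (0.158%). The genes and the element were both chosen as parts of this response, so these shares do not bear on the injury. The stretches below are from RefSeq on GRCm38.p6, plus strand, 5′ to 3′, with both ends of the element in capitals. They come from 4 of the 9 promoters with the element, those of the called Creld2 and Syvn1 and of Hspa5 and Pdia6, which were not called, chosen after their values were seen. All 4 genes lie on the plus strand.
Creld2, chr15:88819495-88819563: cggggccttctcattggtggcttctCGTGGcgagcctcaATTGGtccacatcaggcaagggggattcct
Syvn1, chr19:6046507-6046575: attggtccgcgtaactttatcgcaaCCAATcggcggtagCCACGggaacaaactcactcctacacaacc
Hspa5, chr2:34772000-34772068: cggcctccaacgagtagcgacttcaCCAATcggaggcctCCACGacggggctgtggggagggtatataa
Pdia6, chr12:17266466-17266534: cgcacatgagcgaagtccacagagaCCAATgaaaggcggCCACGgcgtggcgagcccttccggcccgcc
The element lay 126 to 108 bases before the start of Creld2, there in reverse orientation, 44 to 26 before Syvn1, 65 to 47 before Hspa5 and 98 to 80 before Pdia6. The other 5 folding genes with it were Calr, Canx, Derl3, Dnajc3 and Hsp90b1. Its CCAAT end alone is common and was found in 39.8% of the tested genes. Of the 9 genes with the whole element 8 were lower in sign after burn, with a median log2 fold change of -0.12 (range -0.45 to 0.03). Among the 9, 2 were called (0.209% of all genes) and 5 had an unadjusted p under 0.05 (14.3%). They are part of the 43 folding genes, of which 32 were lower in sign. Tested genes with the element outside the folding lists were not read. Whether the element goes with the fall was therefore not tested. A match in these letters is a description of the promoter and not a measured binding site.

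ER chaperones and their partners came first. Creld2, which encodes an ER-resident protein raised by folding stress (ENSMUSG00000023272, GRCm38 chr15:88819646-88826683), had a lowest, median and highest level of 12.0, 14.9 and 18.0 CPM over the 10 burn libraries and 13.9, 19.6 and 32.1 CPM over the 10 excision libraries. All 10 burn libraries lay below the excision median, and within each batch the 5 burn and 5 excision libraries did not overlap. Creld2 fell by 0.45 on the log2 scale (SE 0.08, edgeR adjusted p = 0.00702), with -0.50 in batch 1 and -0.41 in batch 2. Sdf2l1, part of an ER chaperone complex, was at 8.21, 12.8 and 18.8 CPM after burn and 11.1, 16.4 and 30.1 CPM after excision. It fell by 0.55 (SE 0.11, adjusted p = 0.0196), with 9 of 10 burn libraries below the excision median and groups that overlapped at their edges in both batches. Manf, a neurotrophic factor held in the ER and secreted under stress, was at 30.9, 36.9 and 49.1 CPM after burn and 34.0, 44.4 and 72.9 CPM after excision and fell by 0.35 (SE 0.07, adjusted p = 0.0381). Manf groups overlapped in batch 1 (40.8, 41.8 and 49.1 against 43.8, 52.8 and 72.9 CPM) and were apart in batch 2 (30.9, 31.1 and 33.1 against 34.0, 39.3 and 44.9 CPM).

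The chaperone list held 14 measured genes. Of these 3 were called, all lower, where 0.143% of all genes were called lower and 0.209% in either direction. In sign 11 were lower, where 52.4% of all genes were higher, and the median was -0.11, against 0.01 over all genes. Hspa5, which encodes the central chaperone BiP, was at 174, 265 and 373 CPM after burn and 246, 310 and 490 CPM after excision and did not pass (-0.34, SE 0.08, adjusted p = 0.0751). Its batch values were -0.17 and -0.51 (adjusted p of the difference 0.286). Hyou1, a large BiP partner, stood at -0.17 (adjusted p = 0.142) and the lectin chaperone Calr at -0.12 (adjusted p = 0.342), while the lectin chaperone Canx (0.03) and Hsp90b1 (-0.07) lay near 0. Sil1, the exchange factor of BiP, was on the other side at 0.19 (adjusted p = 0.311).

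Disulfide isomerases and ER oxidases were lower in sign in 7 of 9 genes with 0 called (median -0.09). At an unadjusted p under 0.05, 4 were lower (7.46% of all genes). Pdia4 stood at -0.36 (SE 0.09, adjusted p = 0.0658), Pdia6 at -0.22 (SE 0.06, adjusted p = 0.0951) and the oxidase Ero1lb at -0.13 (adjusted p = 0.165). P4hb, which serves both as a disulfide isomerase and as the beta subunit of collagen prolyl hydroxylase, was at 0.03 (adjusted p = 0.830).

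The alpha subunit of that hydroxylase was among the called genes. P4ha1, which carries the catalytic site (ENSMUSG00000019916, GRCm38 chr10:59323296-59373304), was at 55.3, 57.8 and 59.8 CPM in the burn and 73.2, 74.4 and 83.4 CPM in the excision libraries of batch 1. In batch 2 it was at 38.7, 45.5 and 51.6 CPM after burn and 48.8, 54.9 and 59.5 CPM after excision. The groups did not overlap in batch 1 and overlapped in batch 2, and P4ha1 fell by 0.36 (SE 0.06, adjusted p = 0.00473). In a list of 8 collagen prolyl and lysyl hydroxylases, drawn up after P4ha1 was seen, it was the called gene and 6 were lower in sign. P4ha2 stood at -0.31 (SE 0.08, adjusted p = 0.0822) and the lysyl hydroxylase Plod3 at -0.18 (adjusted p = 0.204).

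Degradation and signalling followed. Syvn1, the ubiquitin ligase of ER-associated degradation (GRCm38 chr19:6046576-6053712), was at 47.8, 51.3 and 56.3 CPM after burn and 49.5, 62.4 and 64.8 CPM after excision. The groups of 10 overlapped through the lowest excision library, at 49.5 CPM, since the next stood at 56.7 CPM. That library was singled out after its value was seen. How many of all genes would be set apart by such a choice was not counted. Syvn1 fell by 0.23 (SE 0.04, adjusted p = 0.0196). It was the called gene of 10 in its list, of which 7 were lower in sign. Derl2, of the export channel, stood at -0.19 (adjusted p = 0.0822) and the stress-induced Herpud1 at -0.17 (adjusted p = 0.184). Xbp1 (GRCm38 chr11:5520659-5525893) was at 57.5, 75.6 and 96.5 CPM after burn and 68.8, 91.8 and 129 CPM after excision. It fell by 0.37 (SE 0.07, adjusted p = 0.0149), with -0.36 in batch 1 and -0.38 in batch 2, and 9 of 10 burn libraries lay below the excision median. Gene counts do not separate its spliced from its unspliced mRNA.

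The Xbp1 list held 10 sensors and factors, of which edgeR called Xbp1 alone. At an unadjusted p under 0.05 it held 2 lower genes, Xbp1 included, and 1 higher. The sensors Ern1 (IRE1), Eif2ak3 (PERK) and Atf6 stood at -0.14, 0.00 and -0.16, with adjusted p of 0.553, 0.988 and 0.399. Creb3l2, a membrane-bound factor of the ATF6 kind, stood at -0.34 (SE 0.08, adjusted p = 0.0689). Targets of the integrated stress response, the branch downstream of PERK, had 0 of 12 called by edgeR, 8 higher and 4 lower in sign, and a median of 0.03. At an unadjusted p under 0.05, 2 were higher and 1 lower. Ddit3 (CHOP) stood at -0.10, Ppp1r15a at 0.12 (adjusted p = 0.299), Chac1 at 0.16 (0.344) and Atf3 at -0.48 (0.226). The translocation channel and signal peptidase genes, which bring proteins into the ER, also had 0 of 14 called, at a median of 0.03. Over the 43 measured folding genes of the chaperone, isomerase, degradation and sensor lists, 5 were called lower and 0 higher, 32 were lower in sign, and the median was -0.09. At an unadjusted p under 0.05, 15 were lower (7.46% of all genes) and 3 higher (6.79%). The median was -0.08 in batch 1 (27 of 43 lower) and -0.13 in batch 2 (33 of 43 lower).

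**Figure D1:**
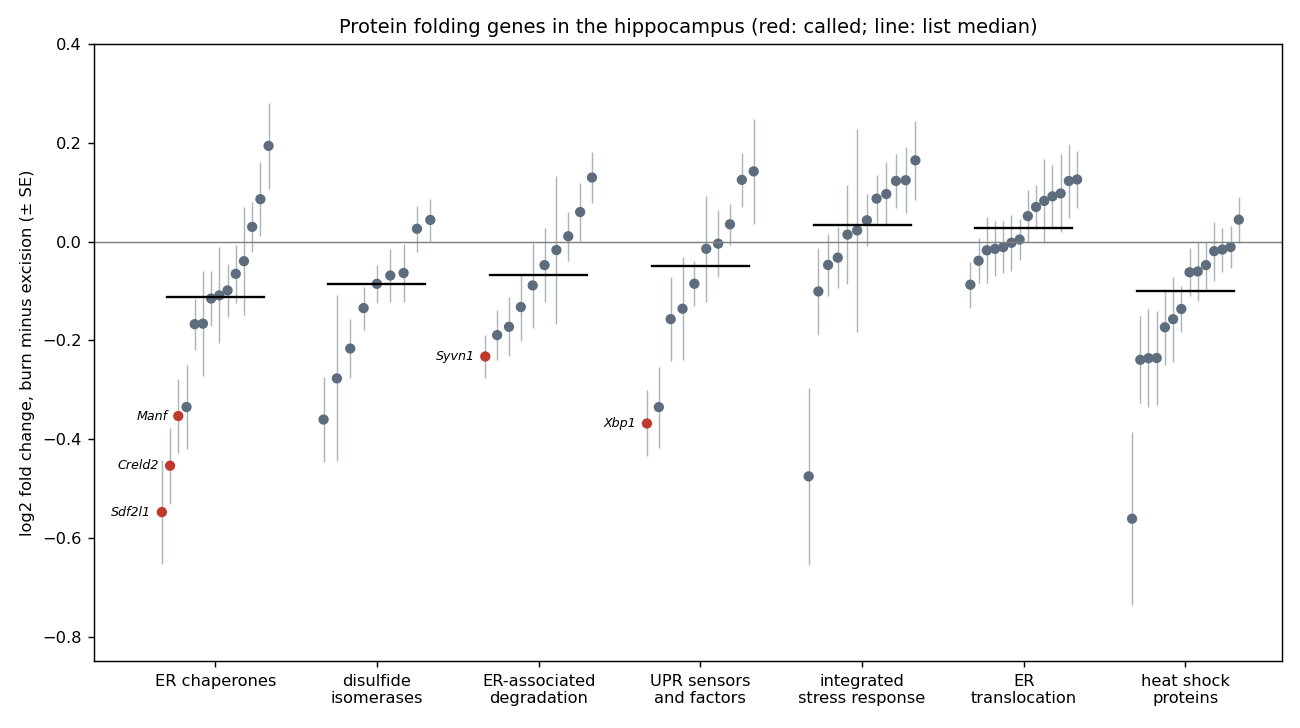
Log2 fold change, burn minus excision, of each measured gene (points, ± SE) in 7 protein folding lists, on the vertical axis, with called genes in red and list medians as lines. Called genes are Sdf2l1, Creld2, Manf, Syvn1 and Xbp1, all below 0, while the translocation and integrated stress response medians lie near 0.

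Heat shock proteins of the cytosol and mitochondria were lower in sign in 13 of 14 genes, with 0 called (median -0.10). At an unadjusted p under 0.05, 6 were lower (7.46% of all genes). Hspb1, a small heat shock protein, stood at -0.56 (SE 0.18, adjusted p = 0.149) and the factor Hsf1, which drives the heat shock response, at -0.24 (adjusted p = 0.214).

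Nuclear regulators were also among the called genes. Banp, a nuclear protein that binds unmethylated CpG-containing motifs at promoters (ENSMUSG00000025316, GRCm38 chr8:121949750-122029258), had the smallest p of all genes. Its level was 19.8, 22.5 and 30.1 CPM after burn and 26.0, 36.9 and 43.7 CPM after excision, and it fell by 0.61 (SE 0.09, adjusted p = 0.00170). Burn and excision did not overlap in batch 1, where the difference was -0.78, and overlapped in batch 2, where it was -0.45. Zbtb40, a zinc finger protein of the BTB family, was at 7.21, 9.32 and 13.8 CPM after burn and 11.9, 14.2 and 19.6 CPM after excision. It fell by 0.61 (SE 0.09, adjusted p = 0.00261), nearly the same in each batch (-0.62 and -0.61), with groups apart in batch 2 and overlapping in batch 1.

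Nfya, the subunit through which NF-Y reads the CCAAT box (GRCm38 chr17:48386885-48409906), was at 17.4, 17.9 and 22.1 CPM after burn and 22.6, 25.7 and 26.9 CPM after excision in batch 1, and at 12.1, 16.4 and 18.0 CPM and 19.7, 21.2 and 23.4 CPM in batch 2. The groups were apart in both batches, and Nfya fell by 0.45 (SE 0.08, adjusted p = 0.0149). Its partner subunits Nfyb and Nfyc stood at 0.01 and -0.05 (adjusted p = 0.961 and 0.641). CCAAT, on either strand of the same window, was found in 10 of 18 called lower genes with a promoter entry (55.6%). It was found in 7 of 11 called higher genes (63.6%) and in 39.8% of tested genes. A gene with more promoter entries has more chances of a match. Counted per promoter, CCAAT was in 36.7% of 30 for called lower genes and 61.5% of 13 for called higher genes. For tested genes that share was 34.7% of 16151 promoters. A part of NF-Y in these changes was not tested. The whole ER stress element was found in 2 of the 18, Creld2 and Syvn1, and in 0 of the 11.

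Called genes of chromatin and transcription are given next, grouped by role after their values were seen. Zmynd8, a reader of acetylated histones, fell by 0.26 (adjusted p = 0.0335). The deacetylase Hdac4 fell by 0.28 (adjusted p = 0.0360) and the chromatin remodelling subunit Dpf2 by 0.23 (adjusted p = 0.0452). Med20, of the Mediator complex, fell by 0.27 (adjusted p = 0.0405), the coactivator Ccar1 by 0.24 (adjusted p = 0.0371) and the histone gene Hist3h2a by 0.30 (adjusted p = 0.0455). Zscan30, which the annotation holds as a transcribed pseudogene, fell by 0.61 (adjusted p = 0.0256) from a low level of 1.56, 2.37 and 2.92 CPM after excision. On the other side Zfp46, a zinc finger gene, rose from 23.8, 27.1 and 33.7 CPM after excision to 27.6, 34.5 and 41.4 CPM after burn, by 0.32 (SE 0.06, adjusted p = 0.0196). Its groups were apart in batch 2 and overlapped in batch 1. Phf13, which binds methylated histone H3, rose by 0.26 (adjusted p = 0.0405).

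Tra2a and Mettl3, which act on RNA, were among the called genes. Tra2a, a splicing regulator, was at 39.4, 43.5 and 61.3 CPM after burn and 47.5, 58.8 and 66.6 CPM after excision and fell by 0.37 (SE 0.07, adjusted p = 0.0256), by the same size in both batches. A list of 22 splicing regulators, drawn up after Tra2a was seen, had 20 genes lower in sign and a median of -0.20. At an unadjusted p under 0.05, 17 were lower (7.46% of all genes) and 2 higher (6.79%). Sfpq (-0.27, adjusted p = 0.0685) and Srsf7 (-0.26, adjusted p = 0.0907) came next. The 2 on the other side were the cold-inducible RNA-binding genes Cirbp (0.37, SE 0.11, adjusted p = 0.111) and Rbm3 (0.31, SE 0.11, adjusted p = 0.209). In batch 1 Cirbp was at 36.2, 39.4 and 46.2 CPM after burn and 28.0, 36.2 and 40.3 CPM after excision. In batch 2 it was at 43.9, 66.4 and 74.2 CPM and 37.0, 43.0 and 50.3 CPM. Rbm3 was at 26.4, 41.3 and 55.2 CPM against 33.4, 39.5 and 44.4 CPM in batch 1. In batch 2 Rbm3 was at 52.4, 78.6 and 81.5 CPM against 40.0, 47.1 and 59.2 CPM. Mettl3, the catalytic subunit of the mRNA N6-adenosine methyltransferase, was at 9.86, 12.1 and 14.4 CPM after burn and 12.8, 14.8 and 16.7 CPM after excision and fell by 0.29 (SE 0.06, adjusted p = 0.0389). The nuclear reader Ythdc1 stood at -0.22 (adjusted p = 0.0593), while Mettl14, the partner of Mettl3, lay at -0.06 (adjusted p = 0.483). In that list of 15, also drawn up afterwards, the median was -0.07. The burn and excision ranges of Tra2a and of Mettl3 overlapped.

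Vascular and metabolic genes differed in how the sham libraries sat. Sox18, a transcription factor of endothelial cells (GRCm38 chr2:181669836-181671640), was at 2.26, 3.09 and 3.88 CPM after burn and 3.92, 4.44 and 5.04 CPM after excision, with no overlap between the 10 and 10 libraries. It fell by 0.56 (SE 0.09, adjusted p = 0.00473). Over both batches sham lay between, at 3.01, 3.66 and 5.36 CPM, so that burn minus sham was -0.33 and excision minus sham 0.23, neither called. The position differed by batch. In batch 1 sham ran from 3.66 to 5.36 CPM, beside 2.55 to 3.88 CPM after burn and 3.92 to 5.04 CPM after excision. In batch 2 sham ran from 3.01 to 4.07 CPM, beside 2.26 to 3.22 CPM after burn and 4.25 to 4.60 CPM after excision. Sox18, Sat2 and Nmb had groups of 10 that did not overlap, 3 of 19574 genes (0.0153%), and Nmb just missed the threshold (-0.80, adjusted p = 0.0503); it was chosen after its values were seen. Xdh encodes xanthine dehydrogenase, an enzyme of purine breakdown. It was at 1.47, 2.21 and 4.05 CPM after burn, 2.18, 4.16 and 5.59 CPM after excision and 1.76, 2.54 and 3.28 CPM in sham. Xdh fell by 0.80 against excision (SE 0.15, adjusted p = 0.0196), with burn minus sham at -0.16 and excision minus sham at 0.64. The burn and excision ranges of Xdh overlapped. It was the called gene of 11 in the purine breakdown and salvage list, whose median was 0.00.

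Endothelial and blood-brain barrier genes were lower in sign in 17 of 20, with Sox18 called and a median of -0.29. At an unadjusted p under 0.05, 9 were lower (7.46% of all genes). The summed level of the 20 was 160, 183 and 254 CPM after burn and 181, 218 and 244 CPM after excision, with wide overlap. The receptor Flt1 (-0.46, adjusted p = 0.173), the adhesion genes Esam (-0.36) and Pecam1 (-0.35) and the tight junction gene Cldn5 (-0.32, adjusted p = 0.326) were lower in sign without a call. Read against the shared sham libraries, 19 of 20 were higher after excision (median 0.25) and 11 of 20 after burn (median 0.02).

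Genes called higher after burn were 13, or 0.0664% of those tested. Fam181a had the largest rise of those at 1 CPM or more, from 0.696, 0.924 and 1.62 CPM after excision to 0.901, 2.08 and 2.63 CPM after burn, or 0.90 (SE 0.16, adjusted p = 0.0139). Here 9 of 10 burn libraries were above the excision median, and sham lay between at 1.00, 1.61 and 1.95 CPM. Nim1k, a serine/threonine kinase, rose by 0.30 (SE 0.06, adjusted p = 0.0196) from 19.1, 21.6 and 26.8 CPM to 24.8, 27.3 and 30.8 CPM. Sat2, of the spermidine/spermine acetyltransferase family, was at 8.20, 9.50 and 10.7 CPM after burn and 5.99, 7.42 and 7.99 CPM after excision without overlap and rose by 0.35 (adjusted p = 0.0196). Idh2, the NADP-dependent isocitrate dehydrogenase of mitochondria, rose from 31.1, 36.4 and 39.3 CPM to 36.0, 43.3 and 51.4 CPM, by 0.30 (SE 0.06, adjusted p = 0.0371). The ranges of Nim1k and of Idh2 overlapped at their edges. Idh2 was the called gene in the tricarboxylic acid cycle list, where 20 of 20 genes were higher in sign. At an unadjusted p under 0.05, 10 were higher (6.79% of all genes). The list median was 0.11, with 0.20 in batch 1 and 0.05 in batch 2. Mdh1 (0.14, adjusted p = 0.179) and Suclg2 (0.25, adjusted p = 0.189) of that cycle did not pass.

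Other called rises were those of Map3k21, a MAP kinase kinase kinase (0.56, adjusted p = 0.0371), the antisense RNA Zbtb11os1 (0.52), the galactokinase gene Galk1 (0.41), the BLOC-1 subunit Bloc1s5 (0.29) and Minar2 (0.23), with adjusted p of 0.0326 to 0.0427. The remaining called falls were those of Cys1, a protein of primary cilia (-0.51), the deubiquitinase Otub2 (-0.37), the actin-binding Ablim3 (-0.46), St5 (-0.40), the actin-oxidising Mical3 (-0.27), the syntaxin-binding Txlna (-0.21) and St7 (-0.20), with adjusted p of 0.0196 to 0.04995. The other 2 called genes had a mean under 1 CPM.

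**Figure D2:**
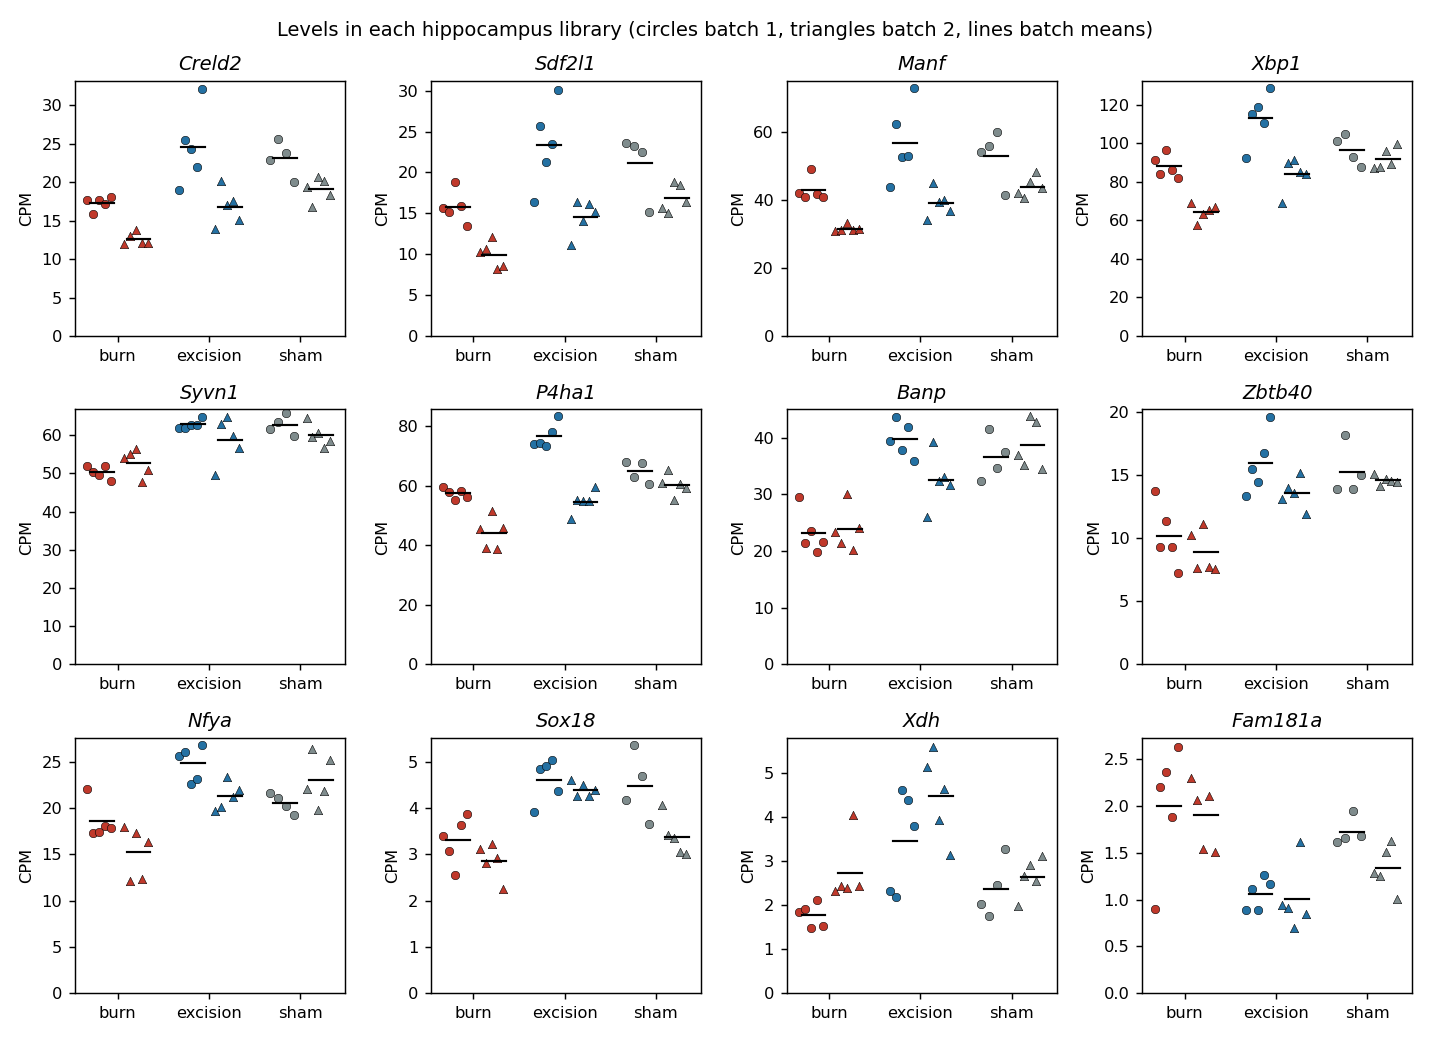
CPM in each hippocampus library for 12 of the called genes, by treatment on the horizontal axis, with circles for batch 1, triangles for batch 2 and lines for batch means. Burn libraries of Sox18 sit between 2.26 and 3.88 CPM, below all excision libraries, and sham sits with excision for Creld2, Banp and Zbtb40 but between the groups for Sox18 and Fam181a and near burn for Xdh.

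In all, 41 of 19574 genes were called (0.209%), 13 higher and 28 lower. Changes were small: the median absolute log2 fold change of the called genes was 0.36 (range 0.20 to 0.91), against 0.10 over all genes, and 7 passed 1.5-fold. An unadjusted p under 0.05 was reached by 2790 genes (14.3%). In 30 of the 41 genes all 10 burn libraries lay beyond the excision median, and in the other 11 it was 9 of 10. The calls come from these same libraries, which partly fixes these counts, and the share over all genes was not counted. Groups of 5 did not overlap for 19 of the 41 in batch 1 (6.47% of all genes) and for 17 in batch 2 (1.98%). They were apart in both batches for Sox18, Creld2, Nfya and Sat2, against 8 of all genes (0.0409%). For 19 of the called genes another annotated gene overlaps, in 17 cases on the opposite strand. Manf overlaps Dcaf1 and Rbm15b, Mettl3 overlaps Tox4, Syvn1 overlaps Mrpl49 and Zbtb11os1 overlaps Zbtb11. The strand setting of the counting is not given in the sources used here, so reads of such pairs cannot be told apart.

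The calls leaned on single libraries: with 1 library left out the number of called genes ran from 9 (without excision 5) to 326 (without burn 8), with a median of 25. Over these 29 fits with 1 library left out, 9 genes stayed called each time: Banp, Zbtb40, Sox18, P4ha1, Creld2, Xbp1 and Nfya as lower and Fam181a and Zfp46 as higher. The other 32 were called in 7 to 28 of the 29 fits, with Syvn1 in 28, Sdf2l1 in 27 and Manf in 15. Burn 5, excision 3, excision 5 and sham 1 held under 10 M counts (M for mega). Without these 4 libraries Banp, Zbtb40 and Sox18 were the genes called, each at an adjusted p of 0.0179, and Creld2 stood at 0.0605. The sign of none of the 41 turned in any fit.

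**Figure D3:**
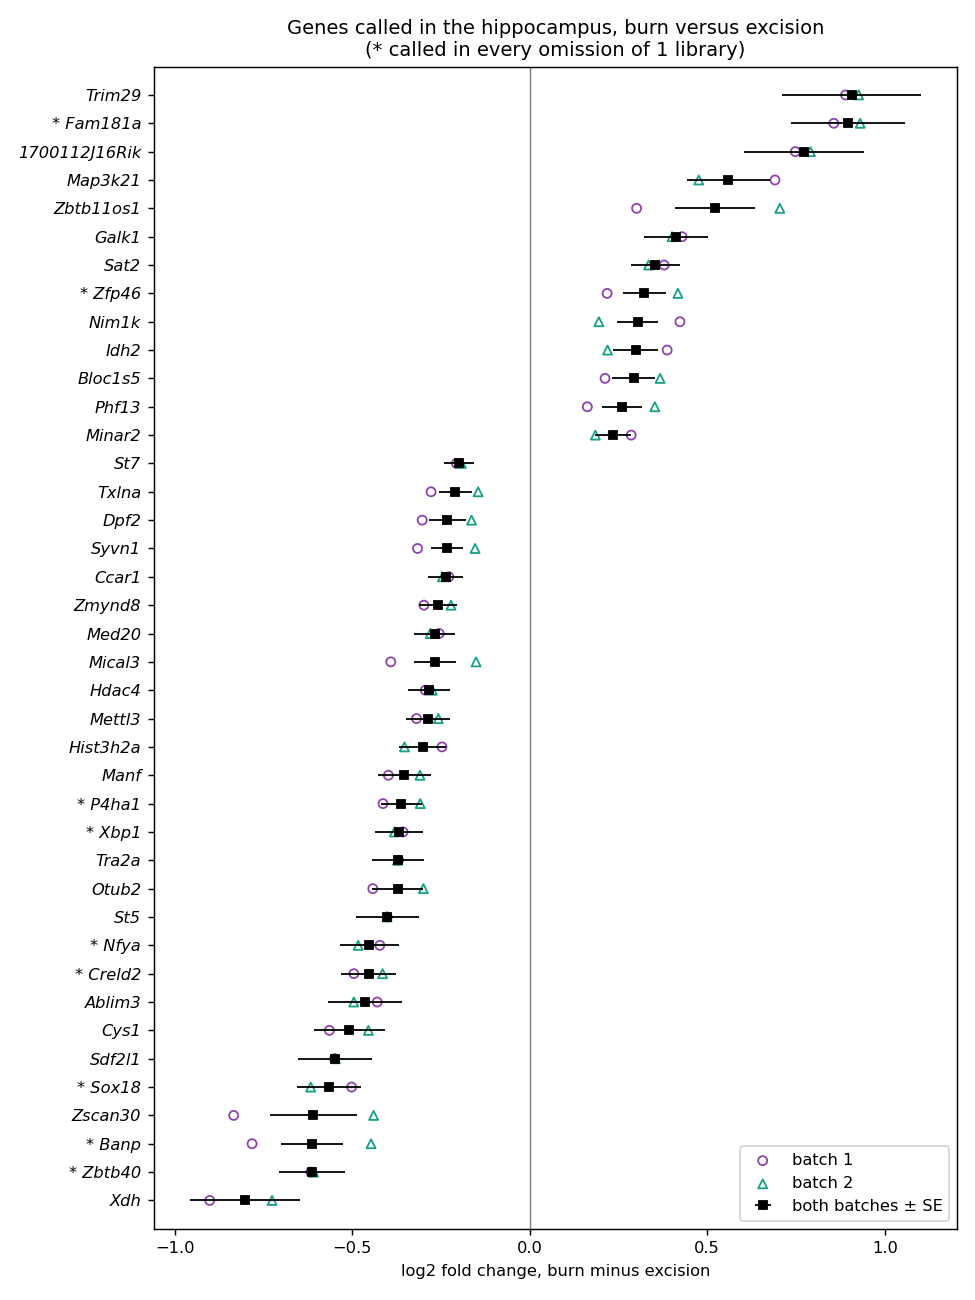
Log2 fold change, burn minus excision, of 40 of the 41 called genes (squares, ± SE) on the horizontal axis, with the value in batch 1 as circles and in batch 2 as triangles. Every batch value lies on the side of the pooled value, and stars mark the 9 genes called in each fit that left out 1 library.

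Batches were then set apart. All 41 genes had the same sign in both batches (52.2% of all genes did), a sign that the call from both batches partly fixes. Their median absolute log2 fold change was 0.39 in batch 1 and 0.37 in batch 2. Fitted alone, batch 1 gave 197 called genes, 12 of them among the 41, and batch 2 gave 0 by edgeR, with 1446 at an unadjusted p under 0.05. A test of the difference between the batches called 0 of the 41, and 3 of them had an unadjusted p under 0.05 (Banp, Nim1k and Mical3). Over all genes it called 6 (0.0307%), and 2744 had an unadjusted p under 0.05 (14.0%). These 6 were lower after burn in batch 1 and higher in batch 2, at an adjusted p of 0.0346 each. They were Egr4 (-0.83 and 0.24), Rara (-0.64 and 0.42), Dusp5 (-0.72 and 0.18), Per1 (-0.65 and 0.24), Ciart (-0.42 and 0.48) and Nova2 (-0.31 and 0.21). None of the 6 was called without the 4 libraries under 10 M counts, and 0 to 9 genes were called with 1 library left out. Egr4, an activity-induced transcription factor, was at 28.3, 31.7 and 35.0 CPM after burn and 43.0, 60.8 and 72.2 CPM after excision in batch 1, and at 25.5, 30.9 and 36.4 CPM and 23.2, 25.7 and 32.0 CPM in batch 2. The excision libraries of batch 1 thus stood above the other burn and excision libraries. Egr4 in sham ran from 30.6 to 40.2 CPM in batch 1 and from 38.4 to 51.6 CPM in batch 2. In batch 2 every burn and excision library lay below every sham library. Per1 and Ciart belong to the circadian clock. Over both batches edgeR called 0 of 16 clock genes, with 8 higher and 8 lower in sign, and 2 higher and 3 lower at an unadjusted p under 0.05. Per2, named after its value was seen, stood at -0.45 (SE 0.10, adjusted p = 0.0555), Per3 at -0.34 (adjusted p = 0.183) and Dbp at 0.28 (adjusted p = 0.237). Library names hold a running number, which put excision (1 to 5) before burn (11 to 15) in batch 1 and burn (1 to 5) before excision (6 to 10) in batch 2. The labels used here do not say whether that number follows collection or processing.

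Nuclear long noncoding RNAs differed in size between the batches. In a list of 8, drawn up after the data were seen, all 8 were lower in sign with 0 called. At an unadjusted p under 0.05, 5 were lower (7.46% of all genes). The list median was -0.70 over both batches, -1.52 in batch 1 and -0.08 in batch 2. Meg3 was at 108, 380 and 849 CPM after burn and 633, 1334 and 2248 CPM after excision in batch 1, and at 1123, 1449 and 2162 CPM and 993, 1686 and 2101 CPM in batch 2. The summed level of the 8 was 1172 ± 536 CPM in burn and 2793 ± 1130 CPM in excision libraries of batch 1, and 3137 ± 753 CPM and 3332 ± 955 CPM in batch 2 (SD, n = 5 each). Of the 8, 6 had an unadjusted p under 0.05 for the difference between batches and 0 were called (smallest adjusted p 0.238). The share of counts in TEC models, which await experimental proof as genes, was 0.0599 ± 0.0123% in burn and 0.0667 ± 0.0103% in excision (SD, n = 10; exact permutation within batches, two-sided p = 0.0631, adjusted 0.189 over 3 library measures).

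With the summed level of the 8 RNAs as a covariate, chosen after seeing the data, Creld2 stood at -0.45 (adjusted p = 0.0134), Xbp1 at -0.42 (0.0104), Sdf2l1 at -0.62 (0.0119) and Manf at -0.40 (0.0324). Tra2a moved to -0.28 (adjusted p = 0.127) and Syvn1 to -0.19 (0.111), and neither was called. In all 17 genes were called in that fit, 12 of them among the 41. What the RNA levels contribute to the other called genes was not tested further.

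**Figure D4:**
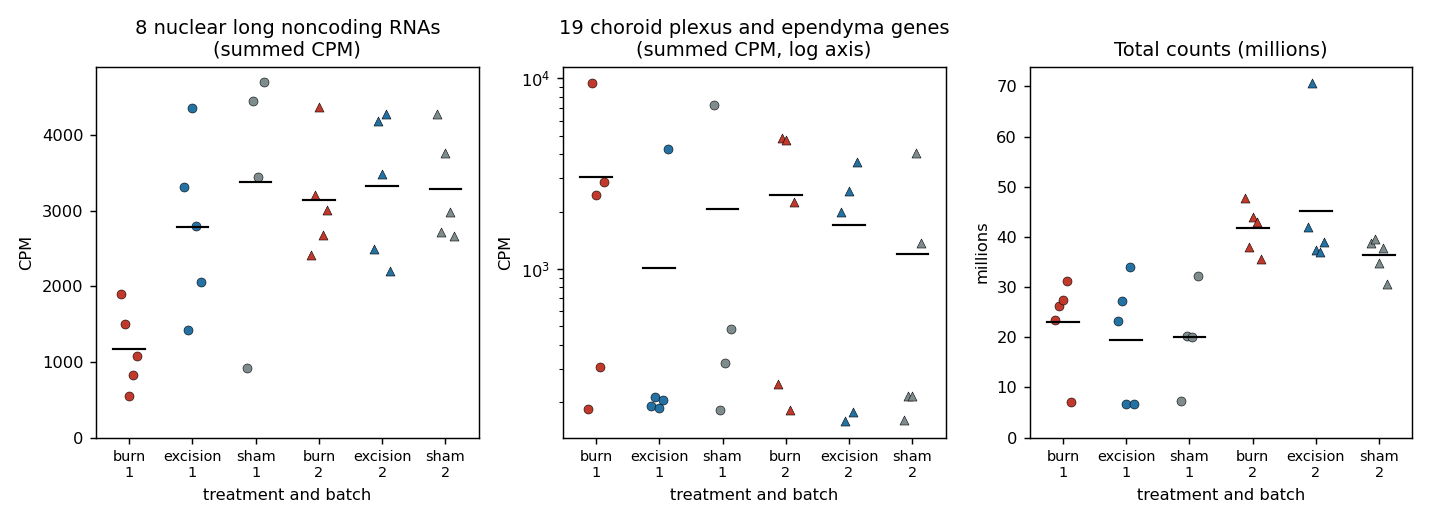
Summed CPM of 8 nuclear long noncoding RNAs, summed CPM of 19 choroid plexus and ependyma genes (log axis) and total counts in M, per library, by treatment and batch (1 or 2 under each name), with lines for means. Burn libraries of batch 1 sit between 553 and 1897 CPM in the left panel, while the choroid sum runs from 160 to 9391 CPM within groups.

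Cell types and neighbouring tissue were read from marker lists. Choroid plexus and ependyma genes were higher in sign in all 19 genes (median 0.91, 0 called, 3 at an unadjusted p under 0.05). Their sum per library was 181, 2335 and 9391 CPM after burn and 160, 209 and 4231 CPM after excision, with ranges that overlapped widely. With that sum as a covariate, also chosen after seeing the data, 26 genes were called, 23 of them among the 41. Dentate granule genes were lower in sign in 13 of 14 (median -0.26, 0 called), with Prox1 at -0.40 (adjusted p = 0.298), and CA field genes lay at a median of -0.01. Striatal projection neuron genes were higher in sign in 11 of 14 (median 0.30, 0 called), with Drd1 at 0.41 (adjusted p = 0.209). Pdyn, of the smallest p in that list, stood at -0.29 (adjusted p = 0.105). Not every gene of the list is particular to the striatum, and Pdyn is also a gene of dentate granule cells. The part of such tissue in the called genes was not tested beyond the choroid covariate.

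Astrocyte genes were higher in sign in 13 of 15 (median 0.10), led by Fgfr3 (0.28, adjusted p = 0.131), and interferon genes lower in 20 of 22 (median -0.15), led by Irf9 (-0.41, adjusted p = 0.109), each with 0 called. Microglia (-0.01), oligodendrocyte (-0.03), interneuron (0.02), pericyte (-0.04) and mitochondrially encoded genes (-0.02) had medians near 0 and 0 called. Oxidative phosphorylation genes were higher in sign in 27 of 28 (median 0.12) and ribosomal protein genes in 28 of 28 (median 0.12), again with 0 called. Immediate early genes had a median of -0.21, made of -0.49 in batch 1 and 0.17 in batch 2, and glucocorticoid-induced genes one of -0.11, with Cdkn1a at -0.51 (adjusted p = 0.248). Of 47 lists 37 had 0 called members and 10 had a called member.

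Burn and excision were then each read against sham. These comparisons share libraries with the one described, so the values are set side by side only. Of the 41 genes 29 were also called in burn against sham, where 202 genes were called (1.03%), and edgeR called 0 genes in excision against sham, where 727 had an unadjusted p under 0.05 (3.71%). Sham lay nearer to excision than to burn in 37 of the 41. The share over all genes was not counted, so this is not shown to be particular to the called genes. Creld2 stood at -0.52 for burn minus sham and -0.07 for excision minus sham, Banp at -0.69 and -0.07, Nfya at -0.40 and 0.05 and Zfp46 at 0.40 and 0.08. Sham was nearer to burn for Xdh, Fam181a, Galk1 and Ablim3, where excision minus sham was 0.64, -0.53, -0.25 and 0.28, none of them called.

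The same contrast was read in the libraries of the other regions. Hippocampus and frontal libraries carry the same batches and running numbers within each treatment field, so they may come from the same mice, which the labels do not say. The test between regions takes them as independent, and signs shared between these regions are not independent support. In the frontal cortex (10 burn and 10 excision libraries) 44 genes were called (0.209%), and 7 of the hippocampal 41 were among them: Banp, Zbtb40, P4ha1, Creld2, Xbp1, Sdf2l1 and Mettl3. That count moved with the libraries used. It was 15 (6 of the 41 among them) without the 3 frontal libraries whose titles name another treatment than their treatment field, 1 (0 of the 41) with treatment taken from titles, and 1318 (14 of the 41) in batch 1 alone. In batch 2 alone edgeR called 0, with 490 at an unadjusted p under 0.05. With 1 frontal library left out it ran from 10 (4 of the 41), without burn 3 or burn 4, to 284 (14 of the 41), without burn 6. All 41 had the same sign there, as did 56.0% of all genes. Creld2 stood at -0.56 (SE 0.08, adjusted p = 0.000790), Sdf2l1 at -0.72 (0.00161), Banp at -0.66 (0.000790) and Xbp1 at -0.41 (0.00151). Nfya lay at -0.05 (SE 0.08) and Fam181a at 0.25 (SE 0.15), neither called. A test of the difference between the regions called 0 genes by edgeR, and 1065 of 21610 had an unadjusted p under 0.05 (4.93%). The shared sign was kept by 41 genes without the 3 frontal libraries with such titles, by 40 with treatment taken from titles, by 38 and 39 in frontal batch 1 and 2 alone, and by 40 to 41 with 1 frontal library left out.

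Region was taken from the tissue field. For the piriform libraries that field and the source name give the piriform cortex, while the titles of all of them name the frontal cortex, and which is right was not tested. In the piriform cortex (5 burn and 4 excision libraries, 1 batch) 0 of 21004 genes were called by edgeR, and 1658 had an unadjusted p under 0.05 (7.89%). The sign of the hippocampus was shared by 13 of the 41, where 34.9% of all genes shared it. Folding genes were lower in sign in 10 of 43 there (median 0.07) and in 31 of 43 in the frontal cortex (median -0.08). Creld2 stood at 0.22 (SE 0.15), Zbtb40 at 0.31 (SE 0.12), Xdh at 1.04 (SE 0.42) and Fam181a at -0.94 (SE 0.34). The difference between piriform cortex and hippocampus was called for 167 genes (0.774%), and 4014 of 21574 had an unadjusted p under 0.05 (18.6%). Of the 167, 17 were among the 41, each of opposite sign in the piriform cortex. The 41 were called from the same hippocampus libraries, which partly fixes this overlap. Phf13 had the smallest p of all genes in that test (difference -0.83, SE 0.11, adjusted p = 5.66e-05). Zbtb40 differed by 0.90 (SE 0.16, adjusted p = 0.00480), Fam181a by -1.85 (0.00728), Zmynd8 by 0.67 (0.0115), Banp by 0.62 (0.0229) and Creld2 by 0.65 (0.0334). The others were Sox18, Syvn1, Nim1k, Xdh, Otub2, Bloc1s5, Zbtb11os1, Galk1, Mical3, Dpf2 and Txlna. Region and batch cannot be told apart in this test, since the piriform libraries form a batch of their own. The 167 became 89 to 527 with 1 hippocampus library left out (89 without excision 7, 527 without burn 8), and the 13 shared signs became 9 to 16 when 1 piriform library was left out.

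**Figure D5:**
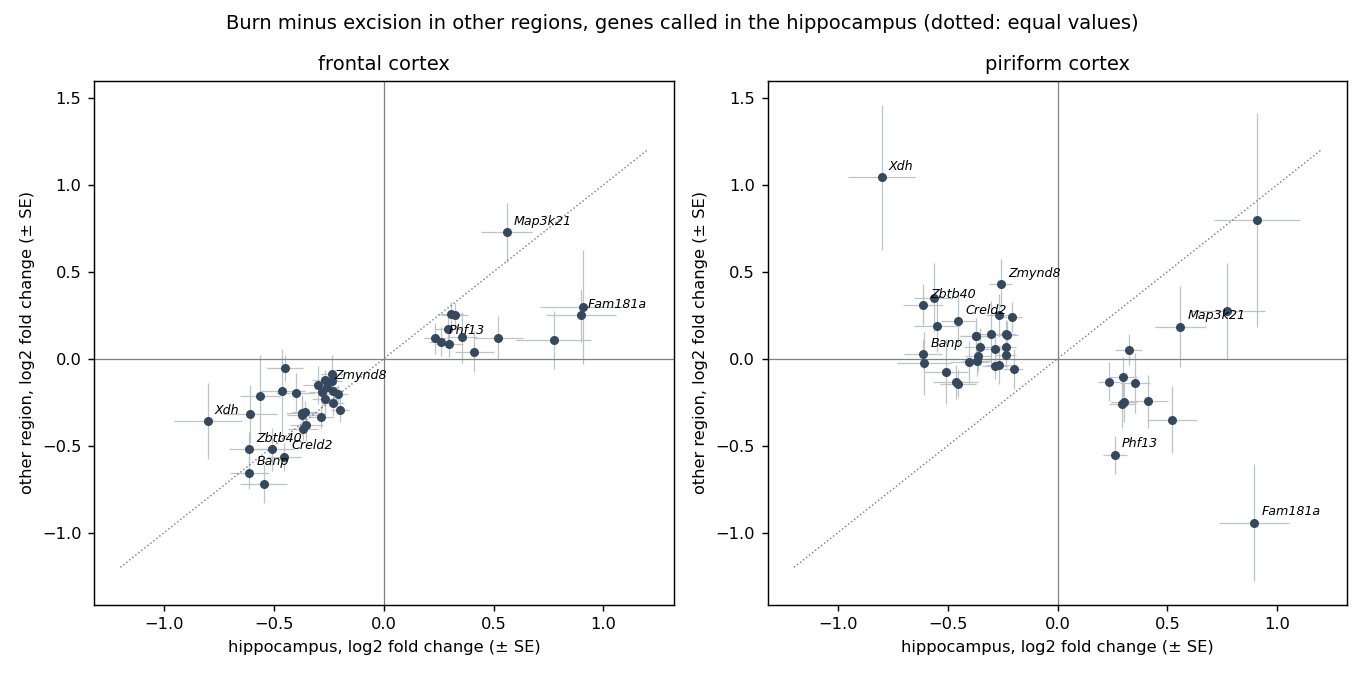
Log2 fold change, burn minus excision, of the 41 called genes in the hippocampus (horizontal axis, ± SE) against the frontal cortex (left) and the piriform cortex (right, vertical axes, ± SE). All 41 points share their sign in the frontal cortex, while 13 do in the piriform cortex, where Zbtb40, Xdh, Fam181a and Phf13 lie on the other side of 0.

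Total counts ran from 6.65 to 34.1 M in batch 1 and 30.7 to 70.7 M in batch 2 and averaged 32.4 ± 12.1 M in burn and 32.4 ± 18.5 M in excision (SD, n = 10; exact permutation within batches, two-sided p = 0.9997). Mitochondrial transcripts took 5.39 ± 1.82% in burn and 5.50 ± 1.26% in excision (exact permutation p = 0.876). Burn 9 stood apart at 10.2%, and sham 3 held the measured blood leukocyte genes (Igkc, Mmp9 and Cd79a) at 30.9 CPM in sum, 22.2 CPM of it from the immunoglobulin gene Igkc, where the other libraries had at most 4.19 CPM. Without burn 9 the count of called genes was 20, 19 of them among the 41, and without sham 3 it was 43, 40 of them among the 41.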

How the data were processed

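The authors deposited a table of whole-number read counts per gene for 71 libraries, sequenced as single-end 100 bp reads per the labels' protocols. Per the submitters' processing notes the tools were STAR, fastp, DESeq2 1.24.0 and FastQC 0.11.3 and the build was GRCm38. Which counter, annotation release and strand option made the counts is not given in the sources used here. Of 55416 gene identifiers 52135 matched GENCODE M21, which gave symbols and positions, and the 3281 others held 0.809% of counts. No row without a gene entered the library sizes.

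Groups came from the tissue and treatment labels. The 29 hippocampus libraries were fitted with edgeR 4.0.16 (R 4.3.3): TMM factors, a filter on low counts by treatment, treatment and batch as terms, the quasi-likelihood test and Benjamini-Hochberg adjustment over 19574 genes. Separate terms per batch gave the batch values and their difference, and joint fits with another region gave the region differences. Library measures were tested by exact permutation within batches (63504 arrangements, two-sided). Total counts, from 6.65 to 70.7 M (mega), set the precision of low genes.

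Called genes of at least 1 CPM are named, except 1 that is not reported here, and from each list up to 4 members with the smallest p. Other list members (such as Hyou1, Calr, Canx, Hsp90b1, Sil1, P4hb, Ern1, Eif2ak3, Atf6, Ddit3, Mettl14, Rbm3, Cldn5 and Meg3) were chosen for their role after values were seen. The members and lists were chosen with earlier results of these data known. Tested on simulated counts of 19382 genes with 50 changed genes per size, the burn and excision fit recovered 30% of 1.2-fold, 88% of 1.5-fold, 100% of 2-fold and 96% of 3-fold changes. Each simulated gene varied on its own, without variation that genes share within a library. The rates may therefore not hold for the real libraries. Alternatives were DESeq2 1.42.0, limma 3.58.1 voom with quality weights, sva 3.50.0, other scaling, no filter, no batch term, single batches, a replicate block, covariates and omitted libraries. Promoter sequences came from RefSeq (GRCm38.p6), and 12 called genes had no entry in that table. No 2 libraries of a group held identical counts (56 pairs compared).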

Additional observations from a re-analysis of the deposited data

Results flagged for a closer look

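Values per group of 9 or 10 libraries were screened for a highest or lowest library far from its nearest neighbour. Of 132 groups tested 10 stood out, and chance alone gives about 1 in 20. In burn, Xdh was at 4.05 CPM in burn 9, above the next library at 2.43 CPM, and Hdac4 was at 65.7 CPM in burn 1, above 52.1 CPM. Burn 9 also had 10.2% mitochondrial counts, where the next burn library had 5.90%. In excision, Syvn1 was at 49.5 CPM and Ablim3 at 60.1 CPM in excision 6, with neighbours at 56.7 and 39.1 CPM. The excision 5 library, one of the shallow ones, held 1700112J16Rik at 0.146 CPM against 0.405 CPM in the next. In sham, Tra2a was at 43.9 CPM in sham 1 (next 57.6 CPM) and Zbtb40 at 18.2 CPM in sham 2 (next 15.1 CPM). Sham 3 had Sat2 at 10.2 CPM (next 8.39 CPM) and Hist3h2a at 23.9 CPM (next 18.5 CPM).

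The contrast differed between the batches, by the test of that difference, for 6 genes. The log2 difference, batch 2 minus batch 1, was 1.07 for Egr4, 1.06 for Rara, 0.901 for Dusp5, 0.896 for Ciart, 0.889 for Per1 and 0.523 for Nova2. It also differed between the piriform cortex and the hippocampus for 167 genes, and 17 of these were among the 41 genes called in the hippocampus.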

How the results depend on the processing

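Burn against excision gave 41 calls. The count was 40 with DESeq2 size factors, and 34 without the sham libraries, 25 of them among the 41. It was 21 without the low-count filter, 303 by DESeq2, 833 by limma voom with quality weights, 8 without the batch term, 197 in batch 1 alone and 0 in batch 2 alone (1446 at an unadjusted p under 0.05). There were 18 with 2 surrogate variables, 19 with the TEC share, 26 with the choroid plexus level and 17 with the nuclear noncoding RNA level as covariates (the last 2 chosen after seeing the data), and 3 without the 4 shallow libraries. With 1 library left out it ran from 9 to 326. By library, the count was 161, 24, 23, 16, 20, 21, 15, 326, 20 and 21 without burn 1 to 10, 19, 70, 27, 12, 9, 141, 22, 27 and 20 without excision 1 to 9, and 25, 23 and 27 without sham 2, 5 and 8. The other omissions gave counts within 1.5 times of 41. Over 1761 pairs of a called gene and a setting 1047 were called, 714 were not and 0 turned in sign.

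As a replicate block, the sample numbers of the titles gave 21 calls, 18 of them shared. Over 10 pairs the deviations of same-numbered burn and excision libraries correlated at -0.546 to 0.446, 4 of them over 0.1. Of the 10, 1 correlated best with its own number. So few pairs cannot tell whether the numbers pair the libraries.

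The batch difference gave 6 calls with size factors, 4 without the filter, 0 without the shallow libraries and 0 to 9 with 1 library left out. It was 0 without burn 1, 2, 3, 9 or 10 or excision 2, 3, 5, 6 or 10, 1 without excision 9, 2 without burn 4, burn 8 or excision 4, and 3 without excision 8. The frontal cortex alone, at 44, gave 22, 13 and 29 without excision 2, 3 and 4, 29, 29, 24, 89 and 70 without excision 7, 8, 9, 6 and 10, 19, 29, 10, 10, 284 and 24 without burn 1, 2, 3, 4, 6 and 7, and within 1.5 times of 44 otherwise. The frontal region difference gave 0 calls in each setting run. The piriform difference gave 156 with size factors, 92 without the filter and 89 to 527 with 1 library left out: 101, 100, 105, 103, 527 and 104 without burn 2, 3, 5, 6, 8 and 10, and 279, 91, 106, 256, 89 and 110 without excision 2, 4, 5, 6, 7 and 9. The cause of these shifts was not tested. Depth limits genes near 1 CPM, where a library of 6.65 M counts holds few reads.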
